A study of Mus musculus with 19 samples.

Results

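The delta protocadherins are single-pass adhesion proteins of the cadherin superfamily, and 7 of their genes, Pcdh1, Pcdh7, Pcdh8, Pcdh9, Pcdh10, Pcdh17 and Pcdh19, were followed here among the 20436 genes of the deposited tables. They were selected by gene symbol, with their levels, footprint to RNA ratios and DHPG differences already known, so these values are given as a description of the family and are not independent evidence about it. The samples were hippocampal slices of wild-type male mice aged 28 to 42 days, with slices of 6 mice pooled and area CA3 kept in them, as the study's methods state for batches 1 to 5. The slices received either vehicle (basal) or the mGluR1/5 agonist DHPG at 100 µM for 5 min, and all were then placed in cycloheximide at 100 µg/ml, which halts ribosomes on the mRNA. RNA-seq was read in 4 basal and 5 DHPG libraries, and ribosome profiling, which sequences the ribosome-protected fragments (RPFs), in 5 basal and 5 DHPG libraries. Replicate 5 had no basal RNA-seq library to pair with its DHPG one.

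Protocadherins bind their own kind across cell contacts through extracellular cadherin repeats that need calcium. The delta group lies outside the large clustered loci and splits into delta1 genes, which carry more cadherin repeats, and delta2 genes. Of the 7 genes followed here (the members), Pcdh1, Pcdh7 and Pcdh9 are delta1 and Pcdh8, Pcdh10, Pcdh17 and Pcdh19 are delta2. In the brain delta protocadherins take part in the sorting of axons, the growth of dendrites and the remodelling of synapses. Tails of delta1 proteins bind protein phosphatase 1 (PP1), and tails of delta2 proteins recruit the WAVE complex, which drives branching of actin.

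Translation of the coding sequences of GENCODE M21, which is built on mm10, separated the members by subfamily. The calcium-binding motif of cadherin repeats occurred 6 times in every complete protein of the delta1 members and 5 times in every one of the delta2 members. At least 1 match was found in 0.719% of 21845 protein-coding genes. A PP1 docking motif was found in Pcdh7 and Pcdh9 and in no delta2 member, and was held by 9 genes (0.0412%), with the related Pcdh11x among them. It is shown because it depends on splicing. The first bases of each stretch come from an upstream exon and the rest from a later one, so that 2 of 3 complete Pcdh7 proteins and 3 of 6 complete Pcdh9 proteins carry it, and counts per gene cannot tell these isoforms apart. The 2 complete Pcdh1 proteins in this annotation lacked it. The coding strand reads as follows across the junction, with the docking motif in capitals, from chr5:57722273-57913188 (plus) for Pcdh7 and chr14:93326848-93560481 (minus) for Pcdh9.
Pcdh7: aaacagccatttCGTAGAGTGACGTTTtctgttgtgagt
Pcdh9: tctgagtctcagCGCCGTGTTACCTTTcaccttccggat

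The WAVE interacting receptor sequence, a loose motif of 6 residues, was present in the tail of at least 1 annotated protein of all 4 delta2 members. Its letters alone say little, since 51.4% of the 21845 genes hold a match somewhere in their protein, and Pcdh7 and Pcdh9 tails held matches too. One match per delta2 gene, at residue 983 in Pcdh8, 1000 in Pcdh10, 996 in Pcdh17 and 1015 in Pcdh19, is shown so that the coding stretches can be compared between the genes. Capitals mark the motif codons, which lie at chr14:79767608-79767649 (minus), chr3:45392757-45392798 (plus), chr14:84533057-84533098 (plus) and chrX:133588354-133588395 (minus) with 12 bases on each side.
Pcdh8: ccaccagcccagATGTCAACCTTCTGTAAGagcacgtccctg
Pcdh10: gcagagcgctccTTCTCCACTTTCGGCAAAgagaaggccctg
Pcdh17: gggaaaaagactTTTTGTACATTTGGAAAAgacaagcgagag
Pcdh19: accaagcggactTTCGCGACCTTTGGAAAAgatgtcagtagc

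In the same build, Pcdh1 lies at chr18:38185914-38212053 (minus strand), Pcdh7 at chr5:57717967-58133230 (plus), Pcdh8 at chr14:79766775-79771312 (minus), Pcdh9 at chr14:93013410-93890679 (minus), Pcdh10 at chr3:45378398-45435623 (plus), Pcdh17 at chr14:84443563-84539002 (plus) and Pcdh19 at chrX:133582860-133688987 (minus). The gene bodies differ far more than the proteins they encode. Pcdh8 spans 4.5 kb and Pcdh9 spans 877.3 kb, whereas the longest coding sequences run from 3171 bases in Pcdh10 to 3765 in Pcdh7. GC content of the longest transcript with a coding sequence was 60.7% in Pcdh1 and 59.8% in Pcdh8. In the other 5 genes it was between 42.6% (Pcdh9) and 47.8% (Pcdh19). The Pcdh1 transcript used holds 1080 coding bases, against 3231 in the longest coding sequence of the gene. Levels per kilobase below use the length of this transcript for RNA and the longest coding sequence for RPFs. Exons of Pcdh7, Pcdh8, Pcdh10 and Pcdh19 overlap genes on the opposite strand, by 2235 bases (4932441J04Rik), 436 bases (Gm9748), 154 bases (1700027H10Rik) and 57 bases (Gm26851), and reads in these stretches could belong to either gene.

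Total counts were between 4870813 and 7793244 in RNA libraries and between 5692064 and 22092434 in RPF libraries, and all 7 members passed the filter on low counts in both assays, with at least 598 counts (Pcdh19 RNA) in every library. Markers of pyramidal cells, interneurons, astrocytes and oligodendrocytes were read in every library, and the CA3 marker Grik4 was at 58.9 to 94.8 CPM in RNA. CPM, a count relative to the size of its library, was scaled by edgeR's TMM method. In bulk slices a smaller number of cells of a type and less RNA per cell cannot be told apart.

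Pcdh1 was the most abundant member in both assays. Per kilobase of transcript its basal RNA was 91.6 ± 23.0 CPM (SD, n = 4), above Pcdh8 with 60.1 ± 12.1, Pcdh9 with 37.7 ± 8.07, Pcdh10 with 21.9 ± 2.59, Pcdh7 with 16.6 ± 1.92, Pcdh19 with 11.9 ± 0.403 and Pcdh17 with 11.5 ± 0.974. The ranges of Pcdh1 and Pcdh8, of Pcdh8 and Pcdh9, and of Pcdh19 and Pcdh17 overlapped, although Pcdh1 exceeded Pcdh8 and Pcdh8 exceeded Pcdh9 in all 4 libraries. Per kilobase of coding sequence, with 30 bases left out at each end, basal RPFs were 181.1 ± 19.4 CPM in Pcdh1 (SD, n = 5), 119.7 ± 12.6 in Pcdh8, 85.3 ± 15.8 in Pcdh9, 40.6 ± 4.31 in Pcdh10, 40.6 ± 7.31 in Pcdh7, 39.4 ± 6.15 in Pcdh17 and 32.7 ± 1.69 in Pcdh19. The first 3 members did not overlap with each other or with the rest, whereas the neighbours among the last 4 overlapped. Pcdh1 held 33.6 ± 1.33% of the members' basal footprints per kilobase and Pcdh8, the activity-induced member also called arcadlin, held 22.3 ± 1.64%. On the RPF scale Pcdh1 stood above 91.4% of genes and Pcdh19 above 63.9%. With the union of all annotated exons as the length, Pcdh1, Pcdh8 and Pcdh9 kept the top 3 places in both assays. Pcdh1 RNA was then 56.4 CPM per kilobase, close to Pcdh8 with 53.0, and Pcdh10 moved from the fourth to the sixth place in RNA (11.4 CPM per kilobase).

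**Figure D1:**
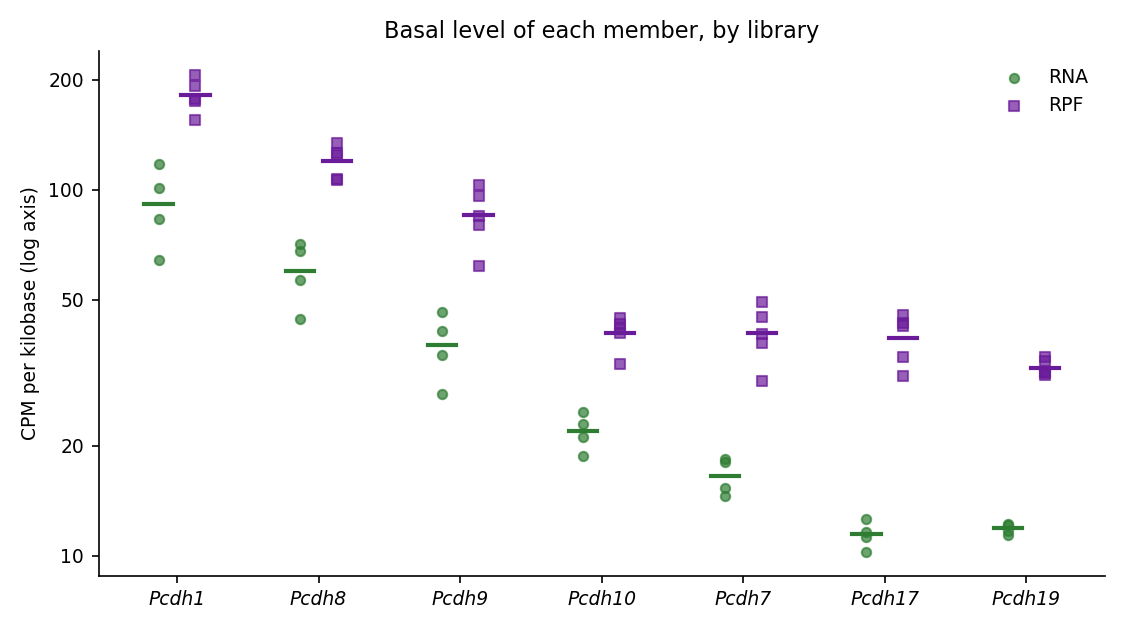
Basal level of each member in CPM per kilobase on a log axis, with RNA as circles (4 libraries) and RPF as squares (5 libraries) and a bar at each mean. Pcdh1, Pcdh8 and Pcdh9 stand apart in RPF, while Pcdh10, Pcdh7, Pcdh17 and Pcdh19 lie close together.

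The related genes outside this set were mostly scarcer. Pcdh20 was the exception, with basal RPFs of 79.6 ± 7.58 CPM per kilobase (SD, n = 5), next to Pcdh9. Pcdh11x stood at 5.10 ± 1.37, Pcdh18 at 2.48 ± 0.515 and Pcdh15, a protein of hair cell tip links, at 1.13 ± 0.311. Pcdh12, known from endothelium, had at most 6 counts in any library and was not tested.

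The ratio of RPF to RNA, or translation efficiency (TE), was computed as the log2 difference of CPM per kilobase within replicates. Its basal mean was highest in Pcdh17, at 1.81 ± 0.29 (SD, n = 4), above 71.6% of 12230 genes. Pcdh19 had 1.47 ± 0.04, Pcdh7 1.29 ± 0.24, Pcdh9 1.197 ± 0.56, Pcdh8 1.05 ± 0.23, Pcdh1 1.02 ± 0.23 and Pcdh10 0.89 ± 0.09, with a median over all genes of 0.95. Pcdh10 was therefore the only member whose mean lay below that median, and with union lengths it was 1.79, while Pcdh1 was 1.48. The order of the members depends on the lengths used. Without division by length the basal mean was highest in Pcdh8, at 0.71, and that of Pcdh17 was 0.06. Pcdh9 varied most between replicates, with 0.87, 1.53, 1.80 and 0.59 in basal replicates 1 to 4 and 0.997, 1.52, 1.63, 0.59 and 0.83 in DHPG replicates 1 to 5. Replicates 2 and 3 were high and replicate 4 was low in both treatments. Pcdh19 ran from 1.41 to 1.51 in basal slices and over a wider range after DHPG, from 1.22 to 1.62.

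**Figure D2:**
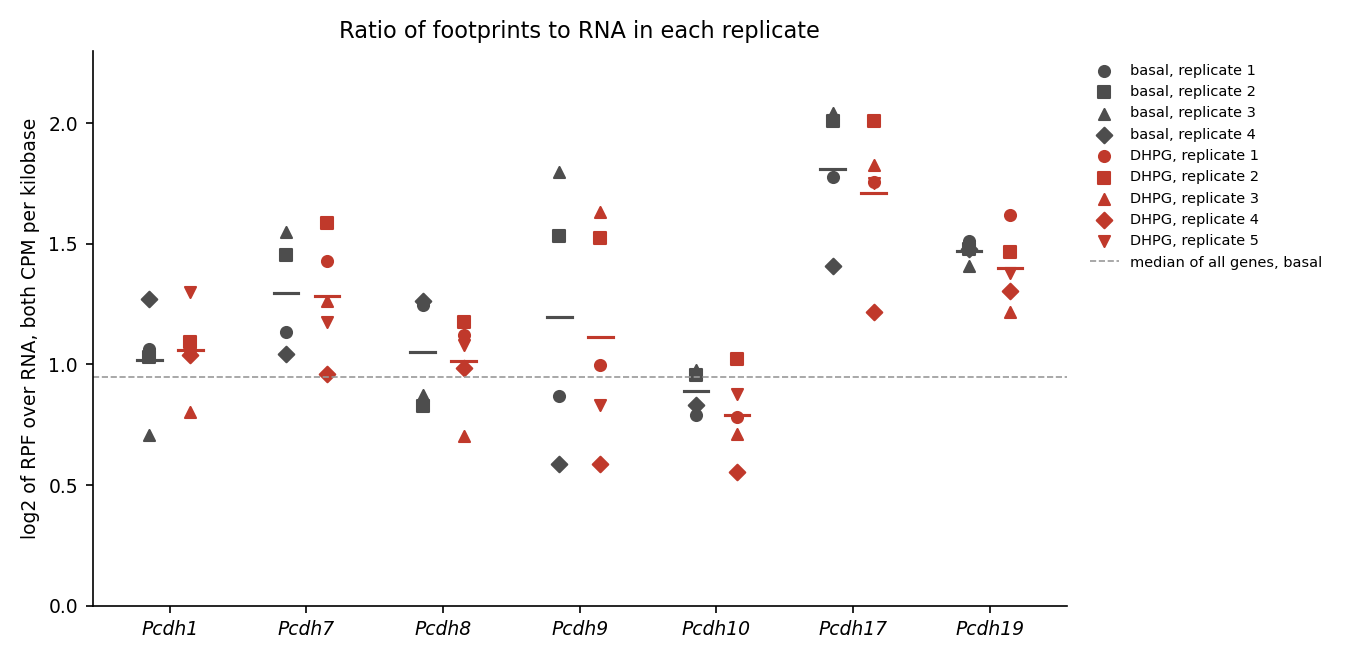
Log2 of RPF over RNA, both in CPM per kilobase, for each member, with a symbol per replicate, basal in grey, DHPG in red and a bar at each mean. The 9 values of Pcdh9 are spread from 0.59 to 1.80, with replicates 2 and 3 high in both treatments, and Pcdh17 stands highest.

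Spread between replicates set the members apart. Pcdh19, the X-linked gene mutated in an epilepsy of females, was among the steadiest RNAs, with basal levels of 126, 125, 121 and 117 CPM in replicates 1 to 4 and DHPG levels of 122, 123, 131, 127 and 121 CPM in replicates 1 to 5. The SD of its log2 RNA level was smaller than that of all but 1.21% of genes in basal slices and all but 0.678% after DHPG. Pcdh9 lay at the other end in RPF, with 310, 376, 352, 227 and 293 CPM in basal replicates 1 to 5 and 324, 403, 366, 247 and 276 CPM after DHPG, and 88.4% of genes had a smaller SD in basal slices. Replicate 2 was high and replicate 4 low, whichever the treatment.

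The same order returned in other members. RPFs of 5 of 7 members, Pcdh1, Pcdh7, Pcdh9, Pcdh10 and Pcdh17, were lowest in replicate 4 and highest in replicate 2 in both treatments, against 3.07% of 12691 genes. Summed over the 7 members, RPFs were at 1482 CPM in basal replicate 4 and 2018 in basal replicate 2. Pcdh8 and Pcdh19 had other extremes, with RPFs highest in replicate 1. The summed RPFs of 7 oligodendrocyte markers were also low in replicate 4, with 4296 CPM in basal and 4987 CPM in DHPG slices, against 7093 to 10120 CPM in the other replicates. Sums of oligodendrocyte precursor markers were lowest in replicate 4 (146.6 and 172.7 CPM) and highest in replicate 2 (294.1 and 300.9 CPM) in basal and DHPG slices. Those of CA1 markers were lowest in replicate 4 too (425.7 and 447.0 CPM). Excitatory neuron and dentate markers were highest there in both treatments. The part of these cell types in the members' levels was not tested.

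Over the 10 RPF libraries the log2 CPM of Pcdh7 had a Pearson r of 0.98 with Pcdh9 and with Pcdh1, and Pcdh17 had an r of 0.91 with Pcdh10. Pcdh19 stood aside, with r of 0.20 to 0.62. Over the 9 RNA libraries the picture was different, and Pcdh1 and Pcdh9, with an r of 0.95 in RPF, had an r of -0.77. Of 12690 genes, 1.06% had an r with Pcdh9 as high as that of Pcdh1 in RPF and 9.68% had one as low in RNA. Pcdh1 RNA was 452, 547, 637 and 348 CPM in basal replicates 1 to 4, and Pcdh9 RNA was 303, 231, 180.4 and 269 CPM. Replicate 3 was thus the highest for Pcdh1 and the lowest for Pcdh9. Their transcripts also lie at opposite ends of the members in GC content (60.7% and 42.6%), whose part in this was not tested. These coefficients are descriptions, since libraries of one replicate number share a batch and most numbers hold libraries of both treatments and assays.

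**Figure D3:**
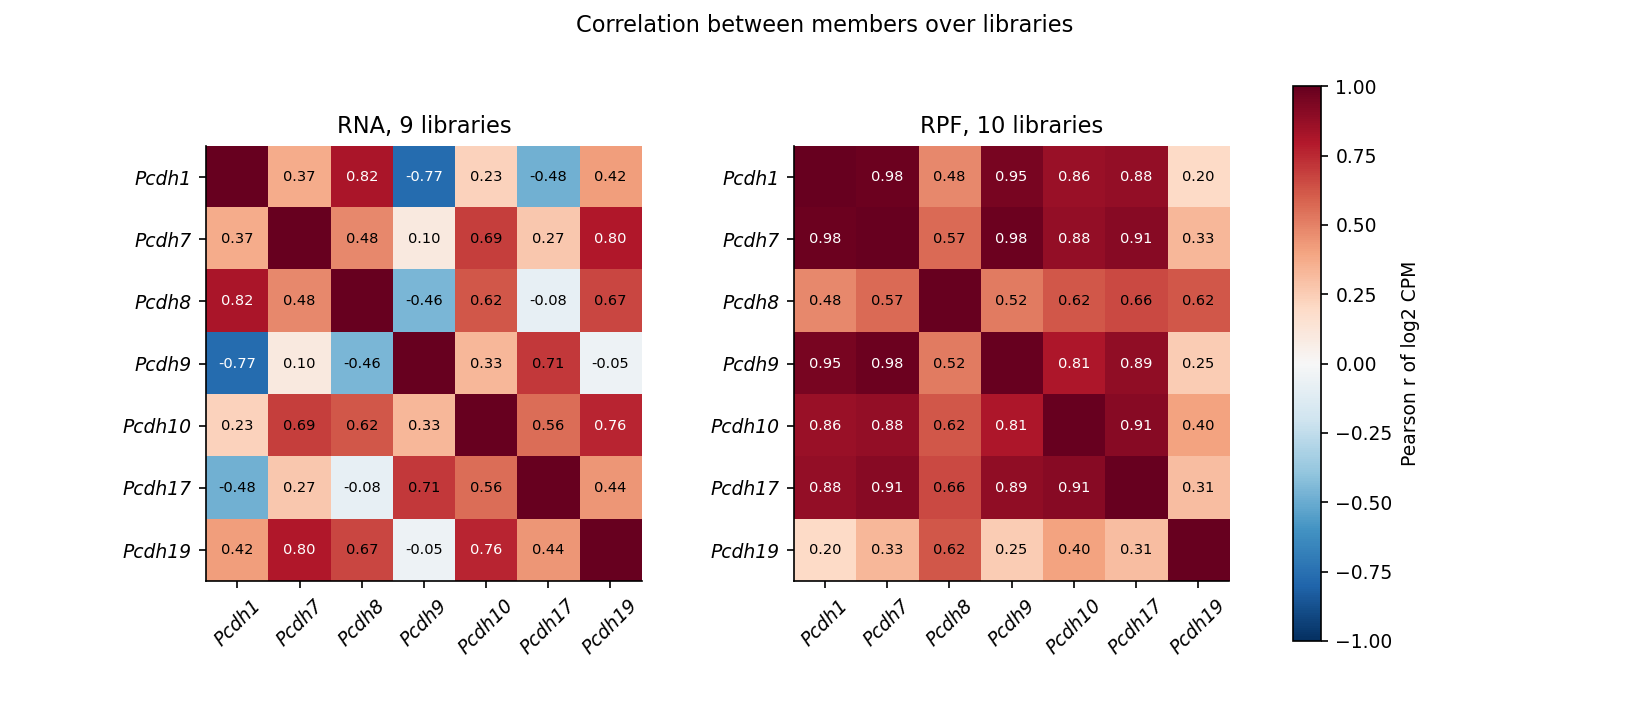
Pearson r of log2 CPM between members over the 9 RNA libraries (left) and the 10 RPF libraries (right), printed in each cell. Pcdh1 and Pcdh9 are at -0.77 in RNA and 0.95 in RPF, and the lowest RPF values lie in the row of Pcdh19.

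The 3 genes most like each member were picked for their high r among 12691 genes, so these values are descriptions. By the mean of r over the 9 RNA and r over the 10 RPF libraries, Pcdh1 was most like Abca2 (0.97), the dachsous cadherin gene Dchs1 (0.96) and the receptor phosphatase Ptprs (0.96). Pcdh7 was most like the adhesion gene Cadm2 (0.89), Il1rap (0.86) and the cadherin gene Cdh6 (0.86), and Pcdh8 most like the lysosomal glucosidase Gaa (0.94), Plxdc1 (0.91) and Lrrc24 (0.89). Pcdh9 went with Ccdc47 (0.96), Ccpg1 (0.96) and Adam9 (0.96), and Pcdh10 with Eml1 (0.85), Stra13 (0.84) and Eif2ak3 (0.83). Pcdh17 was most like Pcdh15 (0.85), Igsf10 (0.82) and the AMPA receptor subunit gene Gria3 (0.81), and Pcdh19 went with Nhs (0.79), Idua (0.77) and Slc15a3 (0.75).

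DHPG induces a long-term depression of synapses that needs new protein, and the comparison with vehicle asks which RNAs and footprints change within its first minutes. In RNA, 0 of 7 members passed an adjusted p of 0.01 (edgeR's quasi-likelihood test, with replicate as a block), a threshold that 0.00773% of 12935 genes passed. At an unadjusted p under 0.05 there were 2 members, Pcdh8 and Pcdh10, and 1037 genes (8.02%) in all, and DESeq2 with the block called 0 members. The unpaired RNA library of replicate 5 is taken up by its own block and adds nothing to these differences. All 7 fitted differences were above 0, with a median log2 fold change of 0.10 against 0.01 over all genes, of which 52.1% were above 0. In RPF, 1 of 7 members passed an adjusted p of 0.05, against 0.22% of 13208 genes (24 up and 5 down), 1 of 7 and 10.8% of genes had an unadjusted p under 0.05, and 6 of 7 differences were above 0 (median 0.06). For TE, 0 of 7 members passed an adjusted p of 0.05 in edgeR's interaction test, 0% of 12691 genes passed, and 0 of 7 members and 6.77% of genes had an unadjusted p under 0.05. Because the family was picked with these differences in view, the counts describe it and carry no further weight.

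**Figure D4:**
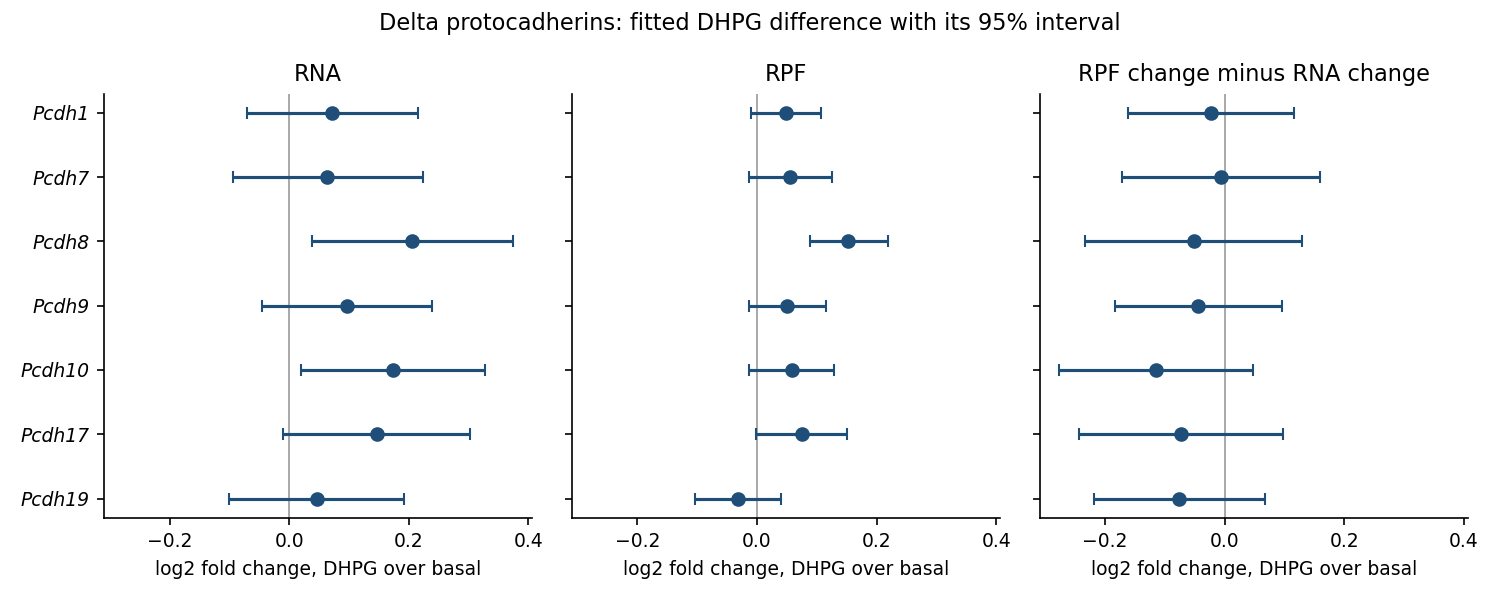
Fitted log2 fold change of DHPG over basal with its 95% interval for each member, in RNA (left), RPF (centre) and as the RPF change minus the RNA change (right). The RPF interval of Pcdh8, from 0.09 to 0.22, lies farthest from 0, and all 7 intervals of the right panel hold 0.

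The member called in RPF was Pcdh8, which is induced by synaptic activity and, through the kinase TAO2 and p38, drives removal of N-cadherin from synapses. Its RPFs were 424, 397, 393, 336 and 335 CPM in basal replicates 1 to 5 and 477, 449, 388, 404 and 382 CPM after DHPG. The groups overlapped, but DHPG was the higher of the pair in replicates 1, 2, 4 and 5, by 0.17, 0.18, 0.26 and 0.19 on the log2 scale, and not in replicate 3 (-0.02). The fitted log2 fold change was 0.15 (standard error 0.03, edgeR adjusted p = 0.0252), or 1.11-fold with a 95% interval from 1.06 to 1.16. The call was kept with DESeq2 and the block (adjusted p = 0.0177), with DESeq2 size factors in edgeR and with ComBat before DESeq2. With no filter on low counts or at least 10 counts in every library it was kept too. Without replicate 3 the edgeR log2 fold change was 0.20 (adjusted p = 0.000344). Without replicates 1, 2, 4 or 5 it was 0.15, 0.15, 0.13 and 0.14 with edgeR adjusted p of 0.103, 0.194, 0.131 and 0.0769, so that the call was lost. It was also lost without the replicate block (0.16, adjusted p = 1) and with the trends of GC content and length removed (0.12, adjusted p = 0.0610).

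Pcdh8 RNA was 227, 284, 272 and 178 CPM in basal replicates 1 to 4 and 278, 253, 303, 259 and 229 CPM in DHPG replicates 1 to 5. The groups overlapped, and the pair of replicate 2 went the other way (-0.17) from replicates 1, 3 and 4 (0.29, 0.16 and 0.54). The fitted RNA difference was 0.21 (standard error 0.08, edgeR adjusted p = 0.558), and that of TE was -0.05 (standard error 0.09, adjusted p = 0.938). The RNA difference was 0.33 without replicate 2 (adjusted p = 0.0200) and 0.09 without replicate 4 (adjusted p = 0.991), and 0.17 to 0.22 without replicates 1, 3 or 5. The interval of the TE difference, from -0.23 to 0.13, is wider than the RPF difference itself.

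For the thalamus, a region beside the hippocampus, 10 of 10 markers tested in RPF had fitted DHPG differences above 0 (median log2 fold change 0.37). Of these, 6 passed an adjusted p of 0.05 (edgeR), against 0.22% of all genes. In RNA 8 of 8 were above 0 (median 0.53) and 1 passed an adjusted p of 0.01, against 0.00773% of all genes. Some genes of this list were picked after their calls were seen, so these counts are not independent evidence. Summed RPFs of the list ran from 184 to 229.5 CPM (median 190.1) in basal and from 190.3 to 302 CPM (median 255) in DHPG slices. The defining marker Tcf7l2 was at 14.0 to 24.3 CPM in the RPF libraries. The part of these cells in the Pcdh8 difference was not tested. By pair, the marker sum differed by 0.28, 0.46, 0.42, 0.39 and -0.24 in replicates 1 to 5. The 7 oligodendrocyte markers differed by 0.12, 0.21, 0.01, 0.22 and -0.13 in the same pairs, with 1 of 7 called in RPF. Of the interneuron markers 1 of 8 was called, Sst (log2 fold change 0.20).

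**Figure D5:**
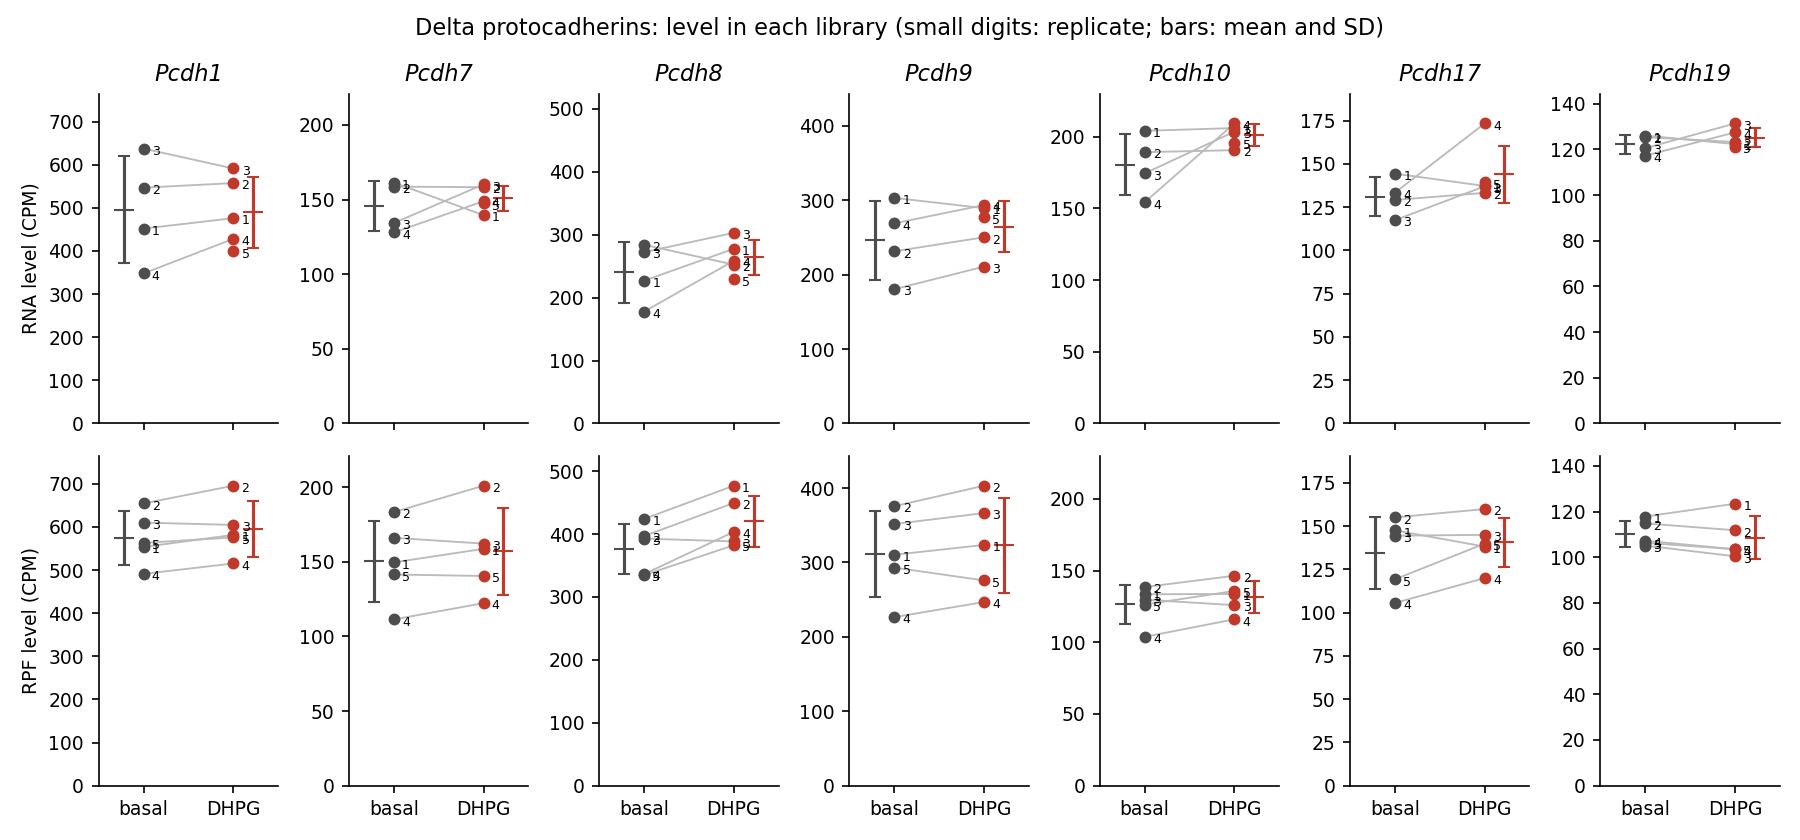
CPM of each member in RNA (top) and RPF (bottom), with a point per library, lines joining basal and DHPG libraries of a replicate, small digits for the replicate, and bars for mean and SD. RPFs of Pcdh8 are higher after DHPG in replicates 1, 2, 4 and 5, and those of Pcdh7, Pcdh9 and Pcdh17 keep replicate 4 lowest under both treatments.

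Pcdh10, which carries ubiquitinated PSD-95 to the proteasome and is controlled by MEF2 and FMRP, had the second largest RNA difference. Its RNA was 204, 189, 174 and 154 CPM in basal replicates 1 to 4 and 206, 191, 204, 209 and 196 CPM after DHPG, higher in 4 of 4 pairs by 0.01 to 0.44. In replicates 1 and 2 the pairs were nearly level, and the larger differences came from replicates 3 and 4. The fit gave 0.17 (standard error 0.08, edgeR adjusted p = 0.585). The RPFs of Pcdh10 differed by 0.06 (standard error 0.04, adjusted p = 0.587), and its TE by -0.12 (standard error 0.08, adjusted p = 0.822), the lowest of the family.

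Pcdh17, which organizes vesicle clusters at synapses, was at 144, 129, 118 and 133 CPM in basal RNA and at 137, 133, 137, 173 and 139 CPM after DHPG. Replicate 4 stood above the others after DHPG. The fitted differences were 0.15 in RNA (standard error 0.08, edgeR adjusted p = 0.646) and 0.07 in RPF (standard error 0.04, adjusted p = 0.472), and the RPF pairs ran from -0.10 to 0.23.

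Pcdh19 was the only member with an RPF difference below 0. Its RPFs were 118, 115, 105, 107 and 106 CPM in basal replicates 1 to 5 and 123, 112, 100.4, 104 and 104 CPM after DHPG. Replicate 1 was higher after DHPG and the other 4 pairs were lower, all within 0.07. The fitted difference was -0.03 (standard error 0.04, edgeR adjusted p = 0.809), with a 95% interval from -0.10 to 0.04.

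The delta1 members had small positive RPF differences, close to that of the delta2 gene Pcdh10 (0.06). Pcdh1 differed by 0.05 (standard error 0.03), Pcdh9 by 0.05 (0.03) and Pcdh7 by 0.06 (0.03), with edgeR adjusted p between 0.571 and 0.592. The 95% intervals of their linear RPF folds lay between 0.991 and 1.09. In RNA they differed by 0.07, 0.10 and 0.06, with wider intervals.

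Partners of the delta protocadherins were read as fixed lists beside them. None of the 9 genes of the WAVE complex, the 7 of the TAO kinase to p38 pathway, the 7 around Pcdh10 and PSD-95, the 4 PP1 and SET partners or the 14 classical cadherins and catenins passed the threshold in RNA, RPF or TE (edgeR), and 4, 3 and 3 of the 41 had an unadjusted p under 0.05 in RNA, RPF and TE, against 8.02%, 10.8% and 6.77% of all genes tested. Their median RPF log2 fold changes were -0.01, -0.04, -0.02, 0.00 and 0.03. The largest RPF differences in these lists were those of Wasf2 (0.07), Taok3 (-0.15), Fmr1 (-0.09), Set (-0.07) and Cdh6 (0.13). At basal, the highest RPF levels per kilobase were those of Brk1 (427 ± 48.3 CPM), Mapk14 (61.4 ± 3.14), Dlg4, which encodes PSD-95 (184 ± 11.5), Ppp1cb (528 ± 39.4) and Ctnnb1, which encodes beta-catenin (452 ± 37.0; all SD, n = 5). Taok3, a kinase related to the partner of Pcdh8, was at 7.03 ± 0.282 CPM per kilobase.

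The 4 other non-clustered protocadherins tested had RPF differences from 0.05 (Pcdh20) to 0.22 (Pcdh15), and 0 of 4 were called in RNA, RPF or TE (edgeR), with 2 at an unadjusted p under 0.05 in RPF. Of 18 immediate early genes 0 were called in these edgeR fits and 10 in RNA, 8 in RPF and 2 in TE had an unadjusted p under 0.05, shares to be set beside the same 8.02%, 10.8% and 6.77% of all genes. Of the 18, 17 had fitted differences above 0 in RNA (median 0.18) and 17 in RPF (median 0.07), with Npas4 at 0.13 the largest in RPF and Fos the most abundant (708 ± 54.8 CPM per kilobase). Their summed RPFs differed between DHPG and basal by 0.07, 0.08, -0.11, 0.27 and 0.06 in replicates 1 to 5. Replicate 3 was the lowest and replicate 4 the highest, as for the RPFs of Pcdh7, Pcdh8 and Pcdh10. How many other genes share this order was not counted.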

How the data were processed

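RNA-seq and ribosome profiling libraries (19 samples) of wild-type slices were analysed. The authors removed adapters with cutadapt and rRNA reads with Bowtie2, aligned to mm10 with TopHat2, removed duplicates and deposited RSEM's expected counts, rounded to whole numbers by gene. RPFs were counted on coding sequence without its ends on RefSeq gene models, and 12 columns that match no sample were not used. Counts were fitted with edgeR 4.0.16 in R 4.3.3 (quasi-likelihood test, TMM, filterByExpr, replicate as a block, Benjamini-Hochberg over all genes tested). Log2 CPM used a prior count of 2. Replicates paired the samples, and the study calls the numbers batches. Deviations from group means correlated within pairs by 0.308 to 0.741 in RNA and 0.259 to 0.523 in RPF. In RNA replicate 2 (0.308) the basal library correlated more with the DHPG library of another replicate. Each sample was a pool of mice. With replicate as a block, p-values rest on the variation of DHPG differences between replicates, not on the spread between mice. edgeR also draws on the spread of other genes, so they do not rest on a gene's own pairs alone. For Pcdh8 the standard error was 0.08 in RNA and 0.03 in RPF with edgeR. With DESeq2 and the block it was 0.15 and 0.04.

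Lengths and positions came from GENCODE M21 (96.0% of genes matched). Members, lists and markers were chosen with earlier results of these data known, and the thalamus list contains genes picked after their calls were seen. Named genes were the members, the other non-clustered protocadherins, list genes past a threshold or else with the largest RPF difference and the highest basal RPF level, and the 3 most alike genes. Low counts carry counting error, and the split of reads between isoforms or paralogs cannot be undone. The alternatives were DESeq2 size factors, 2 other filters, no block, each replicate left out, GC content and length trends removed, DESeq2 1.42.0 with the block, ComBat (sva 3.50.0) before DESeq2, other thresholds, total count scaling and union lengths. The fits were tested on simulated data with changes far larger than those of the members, so that test does not cover differences of their size.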

Additional observations from a re-analysis of the deposited data

Results flagged for a closer look

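Among 63 groups of 4 or 5 values of the members (levels, ratios and pair differences), 2 had an extreme value whose gap to its neighbour passed Dixon's 95% critical value, where chance alone flags about 1 in 20 groups (3.15 of 63). Pcdh17 RNA in DHPG replicate 4 was at 173.4 CPM, with the other DHPG libraries between 133.3 and 139.4 CPM. The RPF difference of Pcdh19 between DHPG and basal was 0.06675 on the log2 scale in replicate 1, with the other 4 pairs between -0.06578 and -0.03764.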

How the results depend on the processing

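Of 245 recomputed log2 fold changes of the members, 226 kept their direction and side of the threshold, 7 (Pcdh8 RPF, of which 6 are given above and the other is the threshold of 0.01) kept the direction but lost the call and 12 reversed. All reversals were of small differences. Without the replicate block Pcdh1 RNA was -0.017, Pcdh1 TE 0.066, Pcdh7 TE 0.008 and Pcdh8 TE 0.017. With GC content and length trends removed Pcdh1 RNA was -0.017, and with at least 10 counts in every library Pcdh7 TE was 0.001. With a replicate left out, Pcdh1 RNA ran from -0.005 (without replicate 4) to 0.134, Pcdh1 TE from -0.068 to 0.050 (without replicate 4), Pcdh7 TE from -0.102 to 0.085 (above 0 without replicates 3, 4 or 5) and Pcdh8 TE from -0.180 to 0.034 (without replicate 4). The cause was not tested.

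Counts of genes called moved more. In RNA (1 gene) there were 7 with no filter on low counts, 102 with ComBat before DESeq2, 0 to 22 with a replicate left out, and 0 with at least 10 counts, without the paired replicate block, with GC content and length trends removed and with DESeq2 and the block. In RPF (29 genes) there were 96 with no filter, 429 with ComBat before DESeq2, 8 at an adjusted p of 0.01, 0 without the block and 3 to 71 with a replicate left out. In TE (0 genes) there were 4 with no filter and 0 to 8 with a replicate left out. With union lengths 5 levels and 2 ratios per kilobase moved by more than 1 SD, those of Pcdh1, Pcdh7, Pcdh10 and Pcdh17, and no other setting moved one. Depth (at least 693 RPF counts of a member per library) and 5 pools per group limit what RPF changes under about 0.1 on the log2 scale can show.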
